A study of Mus musculus with 4 samples.

Results

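MYB is a sequence-specific transcription factor of blood stem and progenitor cells, and its level falls as erythroid cells mature. MEL is a mouse erythroleukemia line, arrested at an immature erythroid stage, that is widely used to study the onset of red cell differentiation. In CUT&RUN a nuclease is tethered to a chromatin protein through an antibody and cuts the DNA beside it. The released fragments pile up where that protein sits, and such a pile is listed as a peak. A protein can be reached by an antibody against itself or, where it carries a tag such as the green fluorescent protein GFP, by an antibody against the tag. The regions described here came up with the antibody against Myb itself and had no anti-GFP peak in their neighbourhood.

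These regions are the anti-Myb peaks whose centre lay more than 10 kb from the nearest anti-GFP centre on the same chromosome. They were chosen by this distance alone. Of 3410 peaks in the anti-Myb list 1818 met the rule, a share of 53.3% (exact 95% binomial interval 51.6% to 55.0%), and these are called isolated below. The remaining 1592 anti-Myb peaks are called the other peaks. Of these, 1107 had an anti-GFP centre within 1 kb and 485 had the nearest at 1 to 10 kb. Every isolated peak was 313 bp wide, so together they covered 569 kb of mm9.

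The anti-Myb library came from MEL cells, and the anti-GFP list of 7327 peaks came from MEL cells labelled Myb-GFP, which is taken here to mean that Myb carries GFP. The labels name no treatment or time point for any library, and they do not state the number of clones behind the Myb-GFP cells. The series held 4 libraries, 1 per group. An anti-GFP library of MEL cells without the Myb-GFP label and a library labelled IgRab, whose antibody is given as none, were not analysed here. No control level therefore stands beside these counts. Only positions were deposited for each peak, with the score fixed at 1. Signal height and read depth are unknown, and whether an isolated region had a weak anti-GFP signal below the list's threshold was not tested. The labelled cell type could not be checked from peak positions. With 1 library per group nothing below has a replicate check, no difference was tested, and the exact 95% intervals cover the counting of peaks only.

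The distance to the anti-GFP list chose the isolated peaks, so it is given as a description. The median isolated peak lay 46.1 kb from the nearest anti-GFP centre, and the middle 50% of the peaks lay between 22.2 and 107.8 kb. At 10 to 20 kb there were 381 isolated peaks (21.0% of them), and at 20 to 50 kb there were 574 (31.6%). A distance of more than 100 kb was found for 489 peaks (26.9%), and of more than 1 Mb for 34 (1.87%). The remaining 1 isolated peak was on a sequence with no anti-GFP peak, so it has no distance and is in none of these counts. In the opposite direction, 5740 of the 7327 anti-GFP peaks (78.3%, 77.4% to 79.3%) had no anti-Myb centre within 10 kb. The anti-Myb list was shorter, at 3410 peaks, so this share is not read against the isolated share.

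The threshold fell within a continuous run of distances. The 5 isolated peaks nearest to it were 10005, 10038, 10044, 10069 and 10100 bp from an anti-GFP centre. They lay on chromosome 2 at 165714175 to 165714487, on chromosome 15 at 58890963 to 58891275, on chromosome 18 at 62325959 to 62326271, on chromosome 15 at 86055239 to 86055551 and on chromosome 13 at 43288791 to 43289103. The 5 anti-Myb peaks that narrowly missed it were at 9993, 9948, 9944, 9936 and 9808 bp, on chromosomes 19, 3, 2, 16 and 7. In the same order, the former stood at rows 141, 88, 1664, 2689 and 233 and the latter at rows 595, 398, 3134, 518 and 162. Most of both sets were thus early rows, with a few late ones.

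Isolated peaks stood later in the anti-Myb list than the other peaks. The rule did not use the row order, and the file gives no key to how its rows were ordered. The median isolated peak stood 54.6% of the way down the list (95% interval of the median 52.2% to 56.8%), against 45.3% (43.0% to 47.7%) for the other peaks. The intervals did not overlap, although both classes ran over nearly the whole list, from row 2 to row 3410 for isolated and from row 1 to row 3405 for other peaks. The middle 50% lay between 28.7% and 78.2% of the way down for isolated peaks and between 20.8% and 70.8% for other peaks, so most of the 2 ranges was common to both.

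By deciles of the list, 341 peaks each, the isolated share went from 142 peaks in the first decile (41.6%, 36.4% to 47.1%) and 156 in the second (45.7%, 40.4% to 51.2%) to 209 in the ninth (61.3%, 55.9% to 66.5%) and 214 in the last (62.8%, 57.4% to 67.9%). The deciles between them lay at 49.9% to 57.2%, without a steady order. Peaks within 1 kb of an anti-GFP centre made up the balance, with 45.7% of the first decile and 24.0% of the last. The share of peaks at 1 to 10 kb had no such course, with 12.6% in the first decile and 13.2% in the last.

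**Figure D1:**
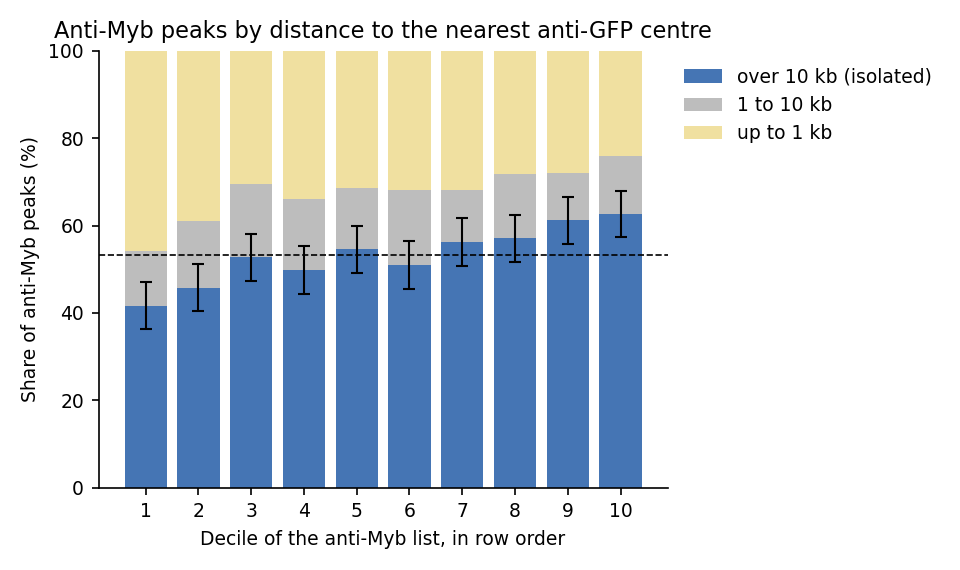
Bars give the share of anti-Myb peaks (%) in each decile of the list, in row order, by distance to the nearest anti-GFP centre. Error bars are exact 95% binomial intervals of the isolated share and the dashed line is its value over the whole list, 53.3%. The isolated share was 41.6% in the first decile and 62.8% in the last.

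Among the isolated peaks, the classes beyond 50 kb from an anti-GFP centre had later medians than the nearer classes, without a steady rise farther out. The median row position was 48.8% (42.3% to 53.5%) for isolated peaks at 10 to 20 kb and 50.4% (47.2% to 55.5%) at 20 to 50 kb. These values differed little from the 47.8% (43.0% to 51.3%) of the other peaks at 1 to 10 kb. Beyond 50 kb the medians lay higher, at 57.4% (53.5% to 61.8%) for 50 to 100 kb, 58.1% (51.3% to 65.2%) for 100 to 200 kb and 59.5% (54.5% to 70.5%) for 200 to 500 kb. The 85 peaks with a distance beyond 500 kb had a median of 57.7% (51.0% to 73.7%). The intervals of neighbouring classes overlapped throughout.

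**Figure D2:**
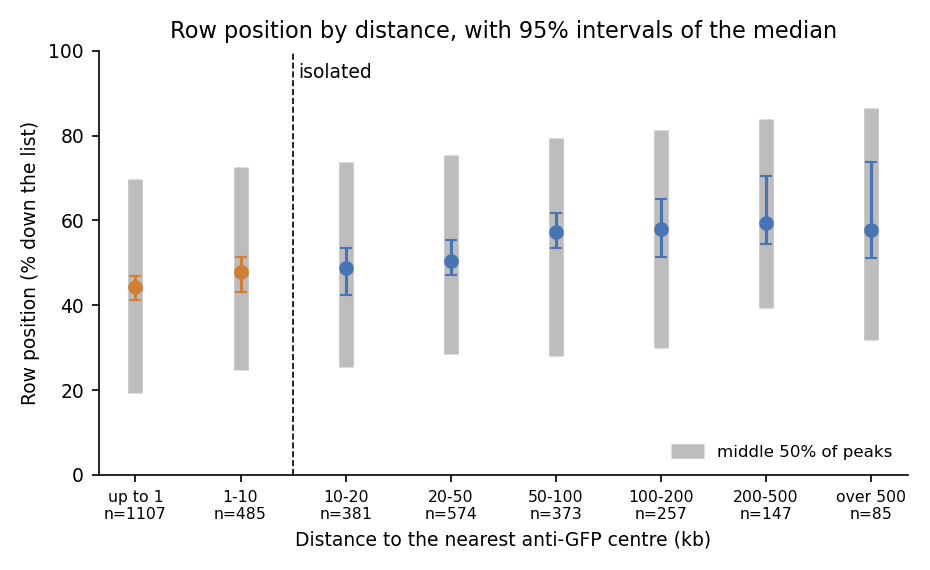
Row position in the anti-Myb list (% of the way down) for classes of distance to the nearest anti-GFP centre, in kb, with the number of peaks under each class. Points are medians with 95% intervals, grey bars the middle 50% of peaks, and the classes right of the dashed line are isolated. Medians were 44.2% within 1 kb, 48.8% at 10 to 20 kb and 59.5% at 200 to 500 kb.

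The later position was found chromosome by chromosome as well. In 19 of the 20 chromosomes 1 to 19 and X the median isolated peak stood later than the median other peak. Chromosome 15 was the exception, with medians of 42.9% for isolated and 43.7% for other peaks. The widest difference, 29.4 percentage points, was on chromosome 13, where the isolated and other medians were 68.1% and 38.8%. It was 20.1 points on chromosome 19 (47.4% and 27.3%) and 19.6 points on chromosome 9 (52.1% and 32.6%). The narrowest differences in the same direction were 3.0 points on chromosome 10 and 3.9 points on chromosome 2. Intervals of the medians were not computed by chromosome, so the difference on a single chromosome may lie within counting error. The running number in the peak names, ranked within each chromosome, gave medians of 55.1% for isolated and 45.2% for other peaks. Within a chromosome this number mostly rose with the row, so it is not a separate check.

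Some isolated peaks nonetheless stood among the first rows. The 10 with the lowest row numbers occupied rows 2 to 33. Row 2, on chromosome 1 at 36977097 to 36977409, was 14.3 kb from an anti-GFP centre and 340 kb from the nearest other anti-Myb centre. Chromosome 2 held row 7 at 152615107 to 152615419, with 41.5 kb to an anti-GFP centre, and row 9 at 31983800 to 31984112, with 109 kb. Of these 3 peaks, row 7 had the closest anti-Myb neighbour, at 28.3 kb.

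Row 10, on chromosome 18 at 35020472 to 35020784, lay 26.8 kb from an anti-GFP centre and 6.10 kb from another anti-Myb centre. Chromosome 9 held rows 16 and 33, at 20833851 to 20834163 and 15093860 to 15094172, which were 151 kb and 68.0 kb from an anti-GFP centre. The regions of row 17, at 39811254 to 39811566 of chromosome 1, and row 25, at 32509462 to 32509774 of chromosome 16, were 40.6 kb and 22.0 kb away. Row 26, on chromosome 19 at 29487031 to 29487343, was 57.3 kb from an anti-GFP centre but 1530 kb from the next anti-Myb centre, so it stood alone in its own list. Row 28, on chromosome X at 123303308 to 123303620, was 3444 kb from the nearest anti-GFP centre and had an anti-Myb neighbour 8.96 kb away. This peak was the only one both among these early rows and among the 5 farthest isolated peaks.

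The other 4 of the farthest isolated peaks stood later in the list and far from other anti-Myb peaks. They lay on chromosome X at 120216738 to 120217050 (row 856, 6530 kb from an anti-GFP centre), on chromosome 3 at 14877453 to 14877765 (row 3281, 6209 kb), and on chromosome 5 at 15026036 to 15026348 (row 1903, 5182 kb) and 58173360 to 58173672 (row 2054, 3736 kb). Their nearest anti-Myb centres were between 3087 and 6116 kb away. Both lists were therefore sparse around these 4 peaks.

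Isolated peaks were found on all of chromosomes 1 to 19 and X, in shares that mostly lay within counting error of the whole list. Chromosome X had the highest share, with 43 of 68 anti-Myb peaks isolated (63.2%, 50.7% to 74.6%). Chromosome 6 followed with 97 of 159 (61.0%, 53.0% to 68.6%), and chromosome 3 with 102 of 169 (60.4%, 52.6% to 67.8%). Chromosome 7 had the lowest share, with 86 of 198 (43.4%, 36.4% to 50.6%), before chromosome 17 with 99 of 212 (46.7%, 39.8% to 53.7%) and chromosome 5 with 108 of 226 (47.8%, 41.1% to 54.5%). With isolation at 10 kb, chromosome 7 was the only one of the 20 whose interval left out the 53.3% of the whole list. These 20 intervals were not adjusted for their number. Another 4 isolated peaks lay on sequences outside these chromosomes, which held 6 anti-Myb peaks in all.

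The density of the anti-GFP list enters the rule, since fewer anti-GFP peaks leave wider spaces between them. Chromosome X had 11.2 anti-GFP peaks per 10 Mb of the span between outermost peaks, the lowest of the 20, and chromosome 3 had 19.5, against 33.3 on chromosome 7 and 43.8 on chromosome 17. Chromosomes 11 and 19 stood apart from this order. They had the densest anti-GFP peaks, 54.7 and 47.4 per 10 Mb, yet isolated shares of 52.8% (47.0% to 58.6%) and 58.6% (50.2% to 66.7%). Across the 20 chromosomes the isolated share and the anti-GFP density had a Pearson's r of -0.40 and a Spearman's rho of -0.54. With chromosomes 11 and 19 left out, whose density was farthest from the median, r was -0.71 and rho -0.72. Leaving them out was not among the planned comparisons. Chromosome X was nearly as far from the median density and was kept, so the stronger values rest on this choice. These coefficients are descriptions, because each share is built on distances to the same anti-GFP peaks.

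**Figure D3:**
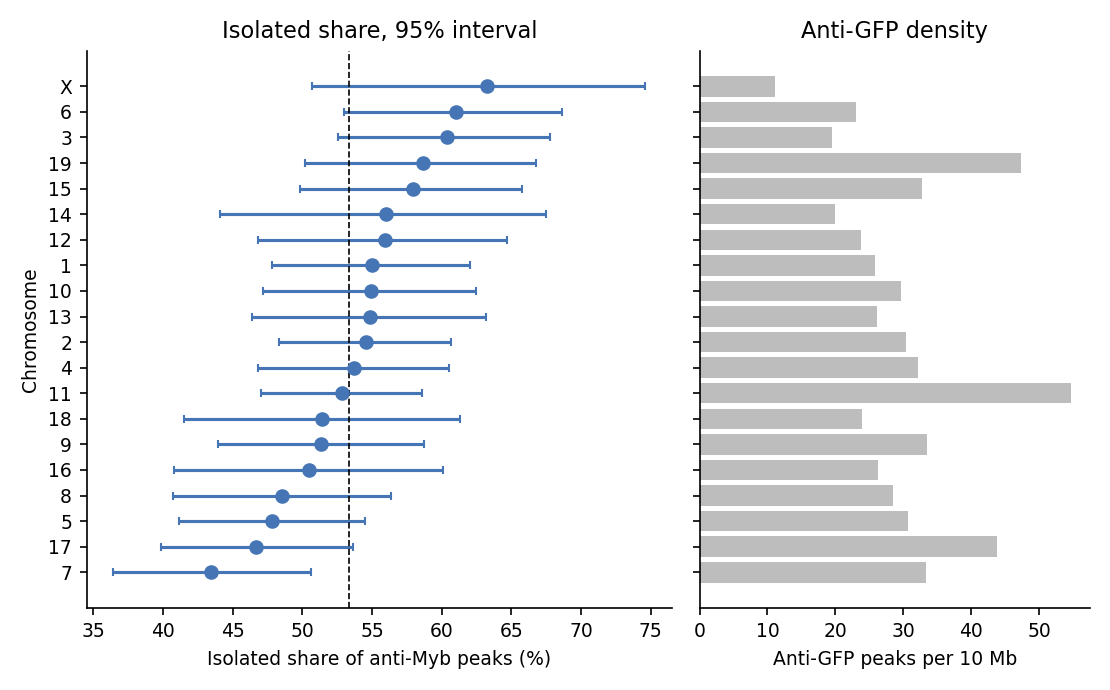
Left, isolated share of the anti-Myb peaks (%) of each chromosome with its exact 95% binomial interval, ordered by share, and the whole list's 53.3% as a dashed line. Right, anti-GFP peaks per 10 Mb for the same chromosomes. Chromosome 7 lay lowest at 43.4% and chromosome X highest at 63.2%, with 33.3 and 11.2 anti-GFP peaks per 10 Mb.

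In number, isolated peaks were most frequent on chromosome 11 with 159, chromosome 2 with 144 and chromosome 4 with 116. Per 10 Mb, chromosome 19 held 14.6 isolated peaks, chromosome 11 held 13.4 and chromosome 17 held 10.8, while chromosome X held 2.695. In windows of 10 Mb, 241 of the 254 windows with an anti-Myb peak on these chromosomes held at least 1 isolated peak. The window with the most was chromosome 19 from 40 to 50 Mb, with 30 isolated of 58 anti-Myb peaks (51.7%). It was followed by chromosome 4 from 130 to 140 Mb with 26 of 49 (53.1%) and chromosome 11 from 100 to 110 Mb with 24 of 34 (70.6%, 52.5% to 84.9%). Windows on chromosomes 2 (160 to 170 Mb), 6 (80 to 90 Mb), 11 (70 to 80 Mb) and 17 (20 to 30 Mb) tied with 23 isolated peaks each. These 7 windows held 9.46% of the isolated and 8.23% of the other peaks, so the windows rich in isolated peaks were also rich in the rest.

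The chromosome 19 window was also the one with the most peaks in the first decile of the list, with 20. Only 4 of those 20 were isolated, while 6 of the 10 first-decile peaks on chromosome 3 from 90 to 100 Mb were. On chromosome 9 from 20 to 30 Mb it was 4 of 10, and on chromosome 5 from 140 to 150 Mb 4 of 8. The counts per window are too small to order these segments.

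Fewer isolated peaks than other peaks had a close anti-Myb neighbour, but this comparison turned on which other peaks were used. The rule also enters it, because a peak close to an anti-Myb peak with an anti-GFP centre beside it cannot be isolated. Another anti-Myb centre lay within 10 kb of 315 isolated peaks (17.3%, 15.6% to 19.1%) and of 413 other peaks (25.9%, 23.8% to 28.2%). Among the other peaks the share was 192 of 485 (39.6%, 35.2% to 44.1%) at 1 to 10 kb from an anti-GFP centre, and 221 of 1107 (19.96%, 17.6% to 22.4%) within 1 kb. The interval of the last class overlapped that of the isolated peaks. All these intervals count neighbouring peaks as separate although most came in pairs of 1 class, so they are too narrow. The distance from an isolated peak to the nearest anti-Myb centre had a median of 60.8 kb (55.6 to 67.4 kb), against 53.7 kb (48.1 to 60.0 kb) for peaks within 1 kb of an anti-GFP centre and 20.1 kb (16.3 to 27.0 kb) for those at 1 to 10 kb.

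**Figure D4:**
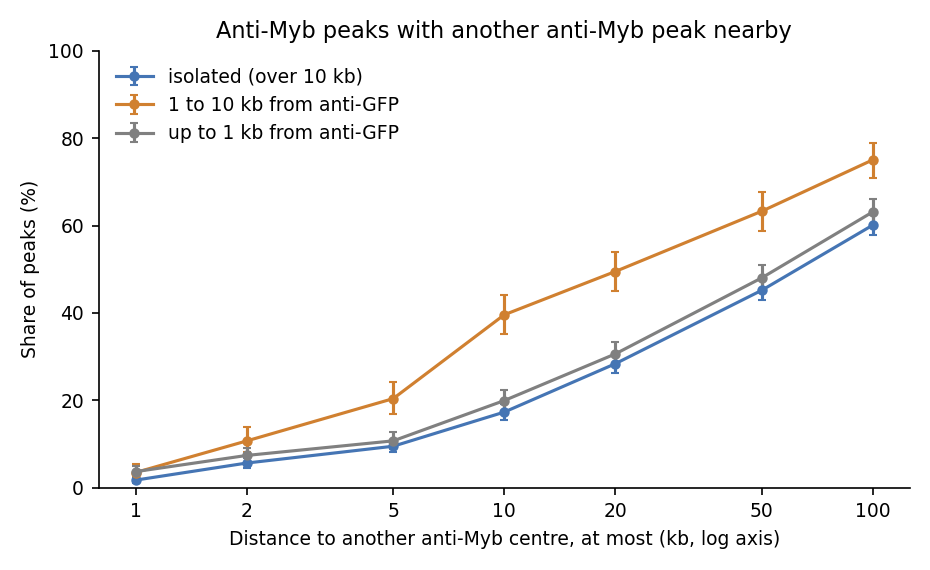
Share of anti-Myb peaks (%) with another anti-Myb centre within the distance on the horizontal axis (kb, log axis), for isolated peaks and for peaks 1 to 10 kb or up to 1 kb from an anti-GFP centre. Error bars are exact 95% binomial intervals. At 10 kb the shares were 17.3%, 39.6% and 19.96%.

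At the shortest range the isolated share was low. Another anti-Myb centre lay within 1 kb of 32 isolated peaks (1.76%, 1.21% to 2.48%) and of 41 peaks within 1 kb of an anti-GFP centre (3.70%, 2.67% to 4.99%), and these intervals did not overlap. The 32 isolated peaks were the members of 16 pairs, and the intervals count both members of a pair as separate peaks. Such intervals are too narrow, so the lack of overlap is not read as a difference. The interval of the peaks at 1 to 10 kb from an anti-GFP centre, 17 of 485 (3.51%, 2.05% to 5.55%), did overlap that of the isolated peaks. Within 2 kb the isolated share (5.67%, 4.65% to 6.83%) and that of peaks within 1 kb of an anti-GFP centre (7.41%, 5.93% to 9.11%) overlapped as well. Within 100 kb the values were 60.1% (57.8% to 62.4%) and 63.1% (60.2% to 66.0%).

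Neighbouring anti-Myb peaks mostly fell in the same class. Of the 380 adjacent pairs with centres within 10 kb, 154 joined 2 isolated peaks, 206 joined 2 other peaks and 20 joined 1 of each. Peaks this close share most of their distance to the anti-GFP list, so the agreement is partly built into the rule. The median spacing within pairs was close in both classes. Pairs of isolated peaks had a median of 4592 bp between centres and a smallest of 628 bp, and pairs of other peaks had 4589 and 568 bp. Of the 154 isolated pairs, 16 were within 1 kb, 35 at 1 to 2 kb, 33 at 2 to 5 kb and 70 at 5 to 10 kb.

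Isolated peaks with a close neighbour stood earlier in the list than those without. The 315 with another anti-Myb centre within 10 kb had a median row position of 41.6% (36.3% to 49.2%), and the 1503 without had 56.5% (54.3% to 58.8%). For other peaks the values were 39.7% (35.7% to 43.8%) with and 47.7% (44.8% to 50.9%) without a neighbour. Without a neighbour the intervals of isolated and other peaks did not overlap, and with a neighbour they did. The classes with a neighbour were smaller, at 315 and 413 peaks against 1503 and 1179, and their intervals count neighbouring peaks separately. Whether the gap between isolated and other peaks depended on a neighbour was not tested.

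Linked by steps of at most 10 kb, the isolated peaks formed 1522 single peaks, 133 pairs, 7 groups of 3, 1 group of 4 and 1 group of 5. The group of 5 lay on chromosome 13 from 64533803 to 64551467, over 17.7 kb, with no anti-GFP centre nearer than 30.3 kb. Its steps were 6.53, 1.75, 8.24 and 0.843 kb, and its members stood at rows 896, 1651, 2396, 2625 and 2985. The group of 4 lay on chromosome 10 from 39844569 to 39862179, at rows 557, 1826, 1921 and 2915. Its nearest anti-GFP centre, at 10.2 kb, was just beyond the threshold.

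The groups of 3 differed in how early they stood and how far they lay from the anti-GFP list. The earliest was on chromosome 15 from 31462328 to 31469961, with rows 45, 109 and 1011 and an anti-GFP centre 61.4 kb away. The group on chromosome 5 from 116471523 to 116479140 stood at rows 552, 575 and 821, 102 kb from an anti-GFP centre. The most compact was on chromosome 9 from 40877517 to 40881752, over 4.24 kb, at rows 988, 1088 and 1286, and its nearest anti-GFP centre was 1388 kb away.

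A second group on chromosome 9, from 63568358 to 63575075, stood late, at rows 2132, 3093 and 3165. The others lay on chromosome 17 from 28960489 to 28970057, chromosome 4 from 118691072 to 118709655 and chromosome 3 from 94730245 to 94746683. Their nearest anti-GFP centres were 165, 104 and 11.2 kb away, and their first rows were 667, 713 and 725.

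The isolated peaks were also sorted by the stretch between neighbouring anti-GFP peaks in which they lay. They fell in 1299 such stretches, of which 7 were at the end of a chromosome or on a sequence without an anti-GFP peak. An isolated peak needs at least 20 kb between anti-GFP centres, and the 1292 inner stretches were 22.0% of the 5876 that wide. Their median length was 230 kb. A single isolated peak was found in 942 stretches, 2 in 251 and 3 or more in 106. In 752 stretches the isolated peak was the only anti-Myb peak.

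The stretches with the most isolated peaks, named after their values were seen, varied widely in length. On chromosome 4 a stretch of 1123 kb from 114673097 to 115796508 held 8 anti-Myb peaks, all of them isolated, the earliest at row 113. On chromosome 2 the 665 kb from 166822390 to 167487305 held 7, all isolated. On chromosome 9 the 404 kb from 63226109 to 63630160 held 6, again all isolated, among them the late group of 3 on that chromosome.

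Shorter stretches with 5 isolated peaks were on chromosome 3, over 250 kb from 94507398 to 94757512, and on chromosome 9, over 303 kb from 20683418 to 20985940, which held the peak at row 16. On chromosome 10 a stretch of 9534 kb without an anti-GFP peak, from 30338244 to 39872093, held only 7 anti-Myb peaks, of which 6 were isolated and 4 formed the group at its edge. Long stretches without anti-GFP peaks were thus not always rich in anti-Myb peaks.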

How the data were processed

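Per the submitters' processing notes, the tools were deepTools 3.4.2, HOMER 4.10.3, Picard 2.17.11, SAMtools 1.11, STAR 2.7.9a and Trim Galore 0.6.6, on the mm9 build. For the role of each tool, the peak threshold, duplicate handling and any control library, nothing is stated in the sources used here. Any threshold or control chosen by the authors decides which anti-GFP peaks are listed and so which anti-Myb peaks count as isolated. All peaks had 1 as the authors' deposited score, which was not used. Coordinates are 1-based on mm9.

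Distances between centres, medians with order-statistic intervals and exact (Clopper-Pearson) 95% intervals were computed with SciPy 1.17.1, pandas 2.3.3 and NumPy 2.4.6 under Python 3.11.15. The isolated peaks were counted again with bedtools 2.31.1, which gave the same 1818. The functions were tested on simulated lists. The isolated peaks and the comparisons were chosen with earlier results of these data known. Named regions were the first 10 isolated rows, the 5 farthest, the 5 on either side of the threshold, groups of isolated peaks (4 or more, or 3 or more where fewer than 3 groups had 4), the 5 richest 10 Mb windows with ties, and the 3 highest and lowest chromosomes. Genes, annotation, sequences and motifs were not analysed here, because no mm9 genome was used.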

Additional observations from a re-analysis of the deposited data

How the results depend on the processing

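The isolated share of 53.3% followed its definition: 60.1% at 5 kb, 42.1% at 20 kb, 25.3% at 50 kb, and 67.9% when the first 50% of the anti-GFP list by row order was the reference. An edge gap of more than 10 kb and chromosomes 1 to 19 and X only left it within its interval. Isolated peaks stood later than other peaks under all 7 alternatives tried, with a median moved beyond its interval at 50 kb alone (58.2% against 47.2%). Among the 7, the running number in the peak names mostly follows the row order and is not a separate check. The comparison with other peaks at 1 to 10 kb kept the same isolated peaks, so its isolated median could not move. The edge gap and the restriction to chromosomes 1 to 19 and X kept nearly the same peaks. Chromosome 7 had an isolated share below that of the list under all 6 alternatives, with 52.0% at 5 kb, 36.4% at 20 kb and 23.7% at 50 kb, where the list had 60.1%, 42.1% and 25.3%. Its interval included the list's share at 20 and 50 kb. Chromosome X was above the list under its 6 alternatives. Its share was 55.9% (43.3% to 67.9%) at 20 kb and 45.6% (33.5% to 58.1%) at 50 kb. Unlike that of chromosome 7, its interval left out the list's 42.1% at 20 kb and 25.3% at 50 kb. At 10 kb the interval of chromosome X included the list's 53.3%. Whether chromosome 7 or chromosome X stood apart from the list thus depended on the isolation distance. The rule itself enters the neighbour shares, so the alternatives for them are not separate support. The share of isolated peaks with an anti-Myb neighbour was below that of other peaks under all 9 alternatives. It was 20.2% against 23.0% with isolation at 5 kb and 14.3% against 23.8% at 50 kb, and 9.52%, 28.4% and 45.2% with neighbours linked at 5, 20 and 50 kb, against 13.7%, 36.4% and 52.7% of other peaks. The comparison with peaks within 1 kb of an anti-GFP centre was added after seeing the data. Alternatives for annotation and motifs were not run. No paired analysis was possible because each group has 1 library. Read depth is unknown, so the lack of an anti-GFP peak near an isolated peak means only that none was listed.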
